A study of Homo sapiens with 12 samples.

Results

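Transcripts of 10 receptor tyrosine kinases were examined in 2 ovarian cancer cell lines after short exposure to THZ1: EGFR, ERBB2, ERBB3, MET, AXL, FGFR1, FGFR2, IGF1R, INSR and EPHA2. The receptors were taken by name, with earlier results of these data known, and each was found as 1 row in the expression table of each line, giving 10 of 23621 gene rows. KURAMOCHI (Ku) and COV362 (Cov) cells, untransduced in every group, received DMSO as vehicle, 50 nM THZ1 or 250 nM THZ1 and were harvested after 6 hr, with 2 replicate libraries per group and 12 libraries in all. THZ1 is a covalent inhibitor of CDK7 that also acts on CDK12 and CDK13, kinases of the transcription machinery, and the study asked what such inhibition does to transcription in ovarian cancer. Ku cells were grown in RPMI and Cov cells in DMEM, both with 10% fetal bovine serum, so that growth factors of serum were present in every group. Each line is a single cell line, and nothing in the labels states whether replicates came from separate cultures, so p-values measure the spread between these libraries, which may be technical.

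Receptor tyrosine kinases are single-pass membrane proteins that bind growth factors or cell-bound ligands outside the cell and phosphorylate tyrosines inside it. The phosphorylated tail recruits adaptors such as GRB2 and SHC1, which pass the signal to the RAS-MAPK and PI3K-AKT pathways, and ubiquitin ligases of the CBL family and feedback proteins such as ERRFI1 limit it. In ovarian cancer these receptors are known as drivers of growth and survival and as drug targets, and several of them can stand in for one another when one is blocked.

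Values are FPKM, read fragments relative to transcript length and library size, which the authors scaled to ERCC spike-ins, synthetic RNAs added to RNA matched by cell number. The scale is per length, so levels of different genes can be set side by side, and in such bulk libraries fewer expressing cells and less RNA per cell cannot be told apart. Epithelial markers fitted the labels in part. PAX8, a transcription factor of the Müllerian epithelium, reached 132 to 139.97 FPKM in the Ku and 120.3 to 128 in the Cov DMSO libraries, and the keratins KRT8 and KRT18 lay between 744 and 2489 FPKM in the same libraries. WT1 was at 53.4 to 60.1 FPKM in Ku but 0.565 to 0.741 in Cov, and MUC16 at 0.159 to 0.172 in Ku and 5.20 to 6.22 in Cov. EPCAM and KRT7 stood at 4.01 to 4.68 FPKM in Ku DMSO libraries, against 149.9 to 174 for EPCAM and 1287 to 1423 for KRT7 in Cov. The leukocyte markers PTPRC and CD3E stayed at or below 0.299 FPKM in every library, while CD14 reached 1.63 in Ku and 0.778 in Cov. Of the fibroblast markers DCN and LUM stayed at or below 0.194, while COL3A1 reached 9.43 in Ku and COL1A1 3.20 in Cov, and of the endothelial markers PECAM1 stayed at or below 0.378 while CDH5 reached 8.67 and VWF 2.97 in Ku. The tables hold no zeros, and the most frequent value of each library, called the floor here, lay between 0.0783 and 0.119 FPKM. Some rows lay slightly below it, such as FGF9 at 0.0930 FPKM in the first Cov 250 nM library, where the floor was 0.0943. No receptor sat on it. The median difference between replicates, 0.09 to 0.17 on the log2 scale, was taken over active genes, those above 1 FPKM in at least 1 of the 12 libraries. Sequencing depth is not known from these values.

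In untreated cells the receptors ranged over a wide span, and EPHA2, a receptor for ephrin-A ligands on neighbouring cells, was the most abundant of the 10 in both lines. In Ku DMSO libraries EPHA2 averaged 166 FPKM, followed by ERBB2 at 43.2, MET at 33.1, FGFR1 at 27.5, AXL at 26.6, EGFR at 14.9, FGFR2 at 13.5, IGF1R at 8.06, ERBB3 at 0.338 and INSR at 0.297. In that order FGFR1 overlapped AXL, EGFR overlapped FGFR2 and ERBB3 overlapped INSR between libraries, and the other neighbours did not overlap. In Cov DMSO libraries the order was EPHA2 at 192 FPKM, MET at 172, AXL at 81.5, EGFR at 75.1, FGFR1 at 15.4, ERBB2 at 14.2, IGF1R at 9.94, FGFR2 at 3.98, ERBB3 at 2.42 and INSR at 1.64, with overlap between AXL and EGFR and between FGFR1 and ERBB2. The tables of the lines were normalized separately, so levels were not tested between lines. Set side by side, MET, EGFR, AXL, ERBB3 and INSR stood higher in Cov and ERBB2, FGFR2 and FGFR1 higher in Ku. EPHA2 and IGF1R differed less.

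**Figure D1:**
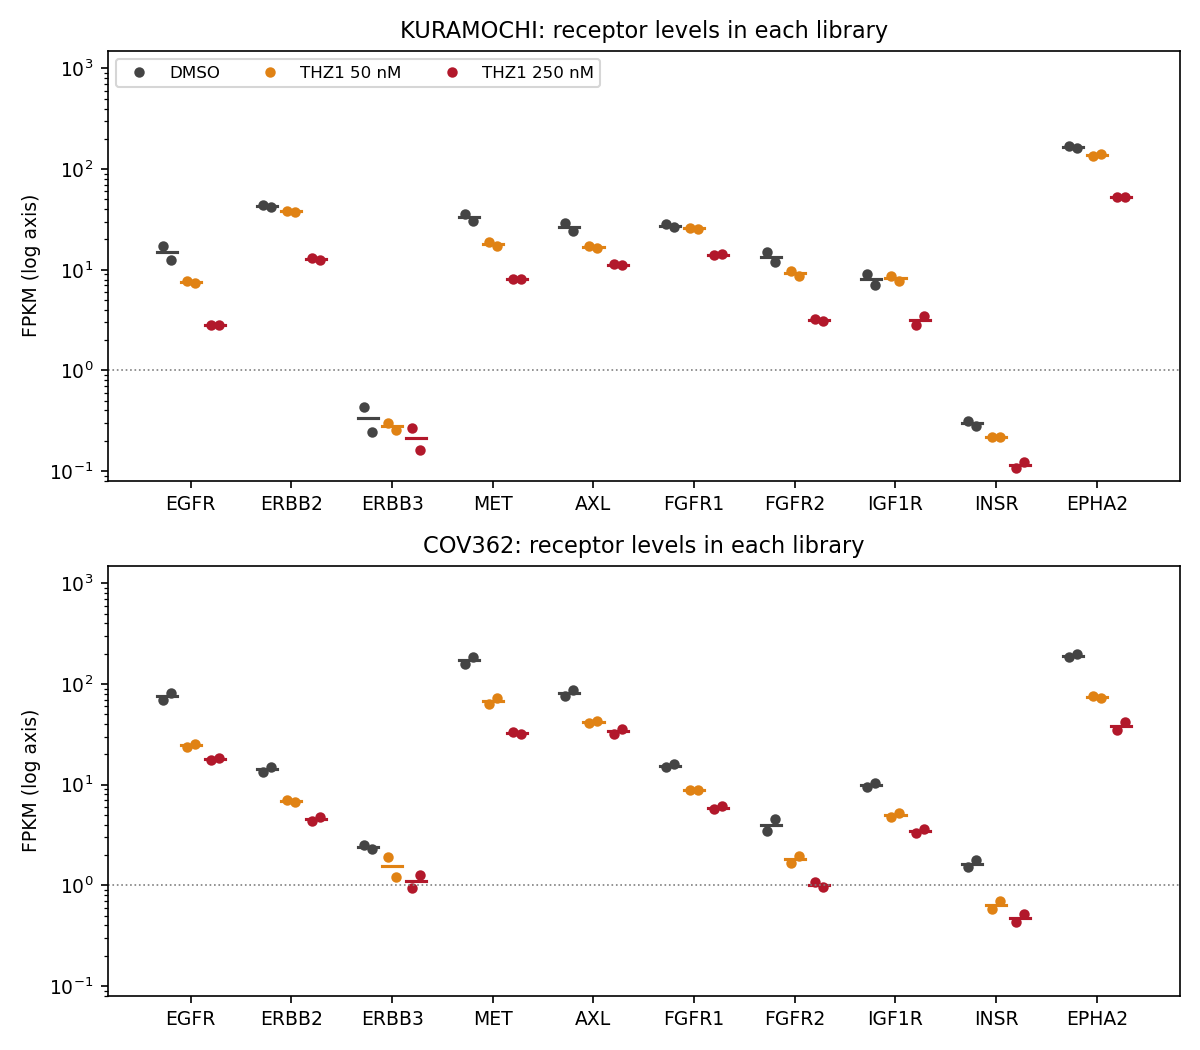
FPKM of each receptor in every library of Ku (upper) and Cov (lower) on a log axis, with points for the 2 libraries of a group, short lines for their mean and a dotted line at 1 FPKM. On this spike-in scale EPHA2 is highest in each DMSO group, ERBB3 and INSR lie below 1 FPKM in every Ku library, and the 250 nM libraries lie below the DMSO libraries for 9 of 10 receptors in Ku and 10 of 10 in Cov, as for 95.9% and 95.6% of all active genes; AXL, FGFR1, IGF1R and ERBB3 lie above DMSO on average when the libraries are scaled to one another instead.

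At 250 nM THZ1, transcripts of most receptors were lower than in DMSO on the spike-in scale. Changes are given as the mean log2(FPKM + 1) of THZ1 libraries minus that of DMSO libraries, a scale that understates changes of genes near or below 1 FPKM, and were tested with limma on the 6 libraries of each line. A gene was called at a Benjamini-Hochberg adjusted p under 0.001 and a log2 change beyond 0.5. By this rule 8 of the 10 receptors were called lower in Ku, all but ERBB3 and INSR, where 68.6% of all 14251 active genes were called lower. In Cov, 9 of 10 were called lower, all but ERBB3, against 84% of all genes. No receptor was called higher, nor had any a rise with an unadjusted p under 0.05, against 0.0491% of genes called higher in Ku and 0.105% in Cov. The median log2 change of the receptors was -1.40 in Ku and -1.30 in Cov, and that of all active genes -1.11 and -1.31. With a pseudocount of 0.1 it was -1.49 and -1.61 for the receptors, beside -1.39 and -1.55 for all active genes. Leaving out either 250 nM library in Ku leaves 1 library in that group. IGF1R, AXL and FGFR1 were then no longer called, and fewer of all genes were called lower as well. IGF1R was not called when any 1 of the 6 libraries was left out. Over these fits the log2 change lay between -1.28 and -0.97 for IGF1R, -1.29 and -1.04 for AXL, and -0.97 and -0.85 for FGFR1.

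These directions rest on the spike-ins. When libraries were instead scaled to the same median FPKM, the median log2 change of all genes at 250 nM moved from -1.11 to 0.30 in Ku and from -1.31 to 0.33 in Cov, and under a median-of-ratios scaling it became -0.00088 and 0.01. Calls over all genes went from 9774 lower and 7 higher in Ku, and 11971 and 15 in Cov, to 1664 and 3853, and 1613 and 3789, under equal medians and to 2708 and 1577, and 2694 and 1221, under median-of-ratios. MET was the 1 receptor below DMSO in both lines under both of these scalings. Its log2 change was -0.54 in Ku and -0.76 in Cov under median-of-ratios, called lower with limma adjusted p of 0.000587 and 0.00019, and -0.05 and -0.31 under equal medians, not called. EGFR was at -0.81 and -0.44 under median-of-ratios, just not called at limma adjusted p of 0.001003 and 0.00111, and at -0.36 and 0.0048 under equal medians. ERBB2, FGFR2 and EPHA2 were below DMSO in both lines under median-of-ratios too, not called. AXL and FGFR1 lay above DMSO in both lines under both scalings, as did IGF1R and ERBB3. Under equal medians AXL was called higher at 0.71 in Ku and 0.79 in Cov, and FGFR1 at 0.98 and 0.64. In what follows, lower means lower on the spike-in scale, and the distance of each receptor from the median of all genes at 250 nM is given beside it. Because that median is 0.30 and 0.33 under equal medians, a value above DMSO there can still lie below the median gene.

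At 50 nM the counts of the lines lay far apart on the spike-in scale. In Ku, 0 of 10 receptors passed the limma thresholds at 50 nM, where 11.3% of all genes were called lower. Of the receptors 6 had an unadjusted p under 0.05. With an adjusted p under 0.05 and a log2 change beyond 0.5, 4 were lower, EGFR, MET, AXL and FGFR2. By that looser rule 5734 of 14251 active genes were lower. In Cov, 9 of 10 receptors were called lower at 50 nM, all but ERBB3, where 70.5% of all genes were called lower. No receptor was called higher at this dose, against 0.0842% of genes in Ku and 0.0772% in Cov, and none had a rise with an unadjusted p under 0.05. The median log2 change of the receptors was -0.23 in Ku and -0.90 in Cov, beside -0.40 and -0.85 for all active genes. The difference between lines was not tested. The adjusted p of a gene also depends on how many genes of its line have small p-values. MET in Ku, at -0.83 with an unadjusted limma p of 0.000322, was not called. FGFR2 in Cov, at -0.81 with an unadjusted limma p of 0.00039, was called. With libraries scaled to equal medians or by median-of-ratios 0 receptors were called at 50 nM in either line, and the genes called lower went from 1607 in Ku and 10042 in Cov to 84 and 22 under equal medians and to 388 and 110 under median-of-ratios. Over all genes the Ku count on the spike-in scale fell to between 6 and 131 when any 1 of the 6 libraries was left out. In Cov, EGFR, MET and EPHA2 stayed called without any 1 of the 6 libraries. Without the second DMSO library, which leaves 1 in that group, ERBB2, AXL, FGFR1, FGFR2, IGF1R and INSR were not called. FGFR1 and IGF1R were also not called without the first DMSO library, nor FGFR2 without the first 50 nM library. Fewer of all genes were called lower in each of these Cov fits as well. The log2 changes of the receptors that lost their call in these fits lay between -0.91 and -0.62. ERBB3, not called in any of them, lay between -0.62 and -0.22 when any 1 of the 6 libraries was left out.

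**Figure D2:**
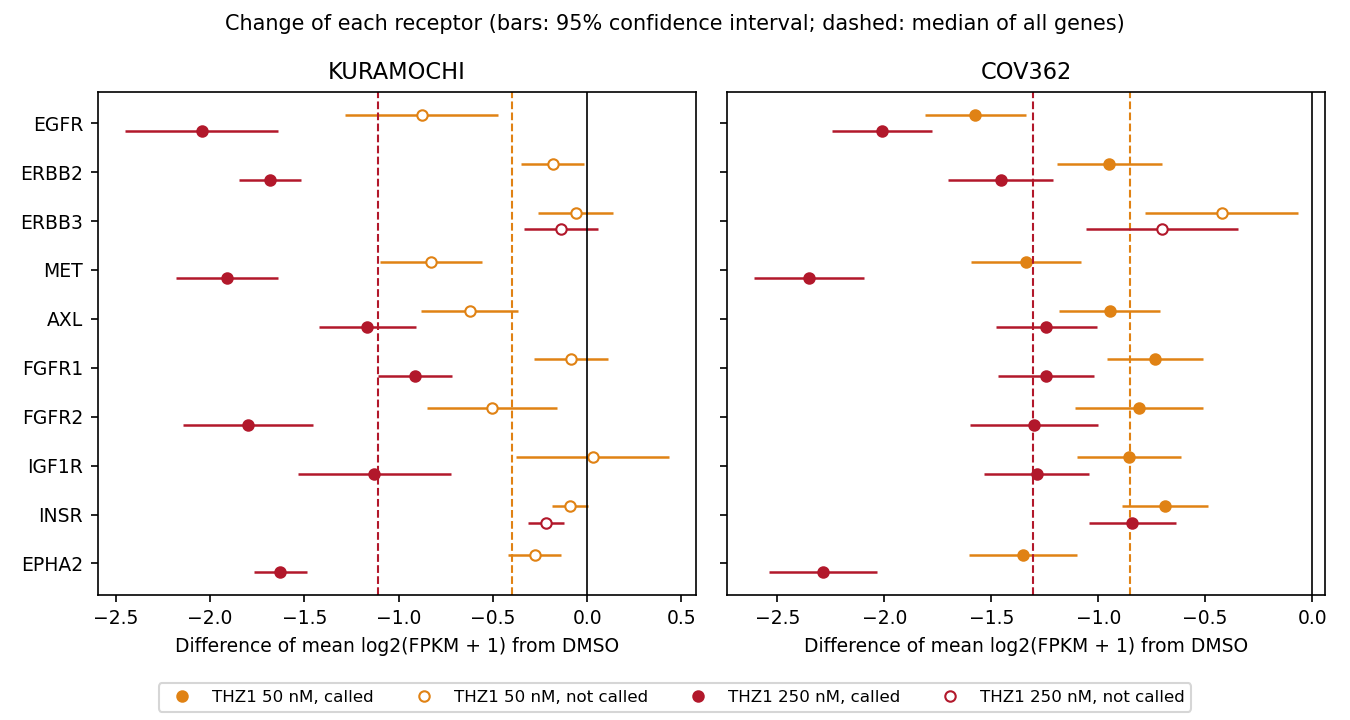
Difference of mean log2(FPKM + 1) from DMSO for each receptor at 50 nM (orange) and 250 nM (red) THZ1 in Ku (left) and Cov (right), with bars for the limma 95% confidence interval, filled points for calls and dashed lines for the median of all active genes. On the spike-in scale EGFR, MET and EPHA2 lie to the left of the 250 nM median with their whole interval in both lines, and AXL and IGF1R lie on it. With libraries scaled to equal medians, the 250 nM values of EGFR in Cov, EPHA2 in Ku, and AXL and IGF1R in both lines change sign. The median of all active genes is then itself 0.30 in Ku and 0.33 in Cov, and EGFR in Cov, at 0.0048, lies below it.

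EGFR, the receptor for EGF, TGFA and related ligands (chromosome 7, 55086710 to 55279321, plus strand, hg19), was among the receptors with the largest changes in both lines. In Ku it measured 17.3 and 12.6 FPKM in DMSO, 7.80 and 7.36 at 50 nM, and 2.79 and 2.85 at 250 nM. In Cov it measured 69.8 and 80.5 FPKM in DMSO, 23.5 and 25.5 at 50 nM, and 17.4 and 18.3 at 250 nM. Groups did not overlap in either line and followed the dose. At 250 nM the mean FPKM was 18.9% of DMSO in Ku, 16.2% to 22.6% over the 4 pairs of libraries, and 23.7% in Cov, 21.6% to 26.2%. The log2 change was -2.04 ± 0.17 (SE) in Ku and -2.01 ± 0.10 in Cov, with limma adjusted p of 5.89e-05 and 1.53e-06. The distance from the median of all genes was -0.94 in Ku and -0.70 in Cov, and 16.2% and 20.0% of active genes had a lower value. Under equal medians the Cov value was 0.0048, where the median of all genes was 0.33. At 50 nM the log2 change of EGFR was -0.88 in Ku, where it was not called (limma adjusted p 0.00622), and -1.58 in Cov, where it was called (adjusted p 2.25e-05).

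ERBB2, which binds no ligand itself and acts as the dimer partner of the other ERBB receptors (chromosome 17, 37844167 to 37886679, plus strand), was on average the next most abundant after EPHA2 in Ku and lay behind FGFR1 in Cov. In Ku it measured 43.98 and 42.5 FPKM in DMSO, 38.2 and 37.8 at 50 nM, and 13.0 and 12.6 at 250 nM. Cov libraries held 13.4 and 15.0 FPKM in DMSO, 7.06 and 6.73 at 50 nM, and 4.33 and 4.78 at 250 nM. Groups were again apart at each dose. In Ku most of the difference lay between 50 and 250 nM, with 87.9% of the DMSO mean left at 50 nM and 29.6% at 250 nM, whereas in Cov 48.4% was left at 50 nM and 32.0% at 250 nM. The log2 change at 250 nM was -1.68 ± 0.07 (SE) in Ku and -1.46 ± 0.10 in Cov, with limma adjusted p of 8.70e-06 and 6.92e-06. It lay -0.57 from the median of all genes in Ku and -0.15 in Cov, where its 95% interval of -1.70 to -1.21 spanned that median. Under equal medians both values were above DMSO, at 0.22 and 0.39, beside 0.30 and 0.33 for the median of all genes. The opposite strand of the locus holds MIEN1, at 40.6 FPKM in Ku and 53.8 in Cov DMSO libraries, and PGAP3. The library kit keeps strand, but whether counting used it is not given in the sources used here.

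ERBB3, the neuregulin receptor whose own kinase is weak and which signals through ERBB2 (chromosome 12, 56470583 to 56497289, plus strand), was low in both lines and was the 1 receptor not called in any comparison. In Ku it measured 0.430 and 0.246 FPKM in DMSO, 0.303 and 0.256 at 50 nM, and 0.265 and 0.161 at 250 nM. These values overlapped between all groups and lay below 1 FPKM, where the pseudocount of 1 compresses differences. In Cov it measured 2.53 and 2.30 FPKM in DMSO, 1.93 and 1.21 at 50 nM, and 0.939 and 1.27 at 250 nM. The DMSO libraries lay above all treated ones, and the doses overlapped. The log2 change at 250 nM was -0.70 ± 0.15 (SE) in Cov, with a limma adjusted p of 0.00275, and -0.14 ± 0.08 in Ku, above the median of all genes by 0.61 and 0.97. Without either of the Cov 50 nM libraries the adjusted p of the Cov value was 0.000132 or 0.000148 and ERBB3 was called lower.

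MET, the receptor for hepatocyte growth factor (chromosome 7, 116312250 to 116438431, plus strand), had the largest log2(FPKM + 1) change of the 10 in Cov and the largest after EGFR in Ku at 250 nM, although by percent of DMSO FGFR2 came before it in Ku, at 23.3%. In Ku it measured 36.1 and 30.2 FPKM in DMSO, 19.0 and 17.4 at 50 nM, and 8.09 and 8.01 at 250 nM. The Cov values were 159 and 185 FPKM in DMSO, 62.7 and 71.8 at 50 nM, and 33.6 and 31.8 at 250 nM. Every step was without overlap in both lines. The mean at 250 nM was 24.3% of DMSO in Ku (22.2% to 26.8% over library pairs) and 19.1% in Cov (17.2% to 21.2%). The log2 change was -1.91 ± 0.11 (SE) in Ku and -2.35 ± 0.11 in Cov, with limma adjusted p of 1.93e-05 and 1.26e-06, and 19.4% and 11.5% of active genes had a lower value. MET lay -0.80 and -1.04 log2 units from the median of all genes. At 50 nM its log2 change was -0.83 in Ku, not called at a limma adjusted p of 0.00185, and -1.34 in Cov, called at 3.91e-05.

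EPHA2 (chromosome 1, 16450832 to 16482564, minus strand), a receptor often abundant in epithelial tumours, measured 170.3 and 162 FPKM with DMSO in Ku, 134 and 139.8 with 50 nM, and 52.9 and 53.4 with 250 nM. In Cov libraries its level was 185 and 199 FPKM in DMSO, 75.8 and 73.3 at 50 nM, and 35.0 and 42.3 at 250 nM. The groups were apart at each dose. In Ku 82.4% of the DMSO mean was left at 50 nM and 32.0% at 250 nM, and in Cov 38.9% and 20.1%. The log2 change at 250 nM was -1.63 ± 0.06 (SE) in Ku and -2.29 ± 0.11 in Cov, with limma adjusted p of 7.03e-06 and 1.28e-06, -0.52 and -0.98 from the median of all genes. Under equal medians the Ku value was above DMSO at 0.34 and the Cov value below it at -0.24, beside 0.30 and 0.33 for the median of all genes. At 50 nM EPHA2 had a log2 change of -0.28 in Ku, not called, and -1.35 in Cov, called at a limma adjusted p of 3.57e-05.

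AXL, the receptor for GAS6 (chromosome 19, 41725128 to 41767671, plus strand), lay close to the median of all genes in both lines. In Ku it measured 28.9 and 24.3 FPKM in DMSO, 17.2 and 16.5 at 50 nM, and 11.4 and 11.1 at 250 nM. Levels in Cov were 76.4 and 86.7 FPKM in DMSO, 40.8 and 42.7 at 50 nM, and 31.9 and 35.7 at 250 nM. The groups did not overlap, but in Cov the step from 50 to 250 nM was small. At 250 nM 42.3% of the DMSO mean was left in Ku and 41.5% in Cov. The log2 change was -1.17 ± 0.10 (SE) and -1.24 ± 0.10, with limma adjusted p of 8.97e-05 and 1.21e-05, and lay -0.06 and 0.06 from the median of all genes; with libraries scaled to equal medians or by median-of-ratios the sign turned in both lines.

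FGFR1 and FGFR2, receptors for fibroblast growth factors, were present at different ratios in the lines. In Ku FGFR1 measured 28.7 and 26.3 FPKM in DMSO, 26.2 and 25.5 at 50 nM, and 13.9 and 14.4 at 250 nM, and in Cov 14.8 and 16.0, 8.76 and 8.92, and 5.69 and 6.14. FGFR2 (chromosome 10, 123237846 to 123357972, minus strand) measured 15.0 and 12.1, 9.67 and 8.72, and 3.20 and 3.11 FPKM in Ku, and 3.45 and 4.51, 1.68 and 1.97, and 1.07 and 0.951 in Cov, in the same order of doses. Neither gene overlapped between groups, although FGFR1 at 50 nM in Ku lay just under the lower DMSO library. The log2 change of FGFR1 at 250 nM was -0.91 ± 0.08 (SE) in Ku and -1.24 ± 0.09 in Cov, with limma adjusted p of 8.06e-05 and 9.31e-06, above the Ku median of all genes by 0.20 and the Cov median by 0.06. FGFR2 had a log2 change of -1.80 ± 0.14 in Ku, -0.69 from the median of all genes, and of -1.30 ± 0.13 in Cov, 0.01 from it, with limma adjusted p of 5.11e-05 and 3.30e-05. FGFR1 changed sign under both other scalings in both lines, and FGFR2 was above DMSO in Cov under equal medians, at 0.07, where the median of all genes was 0.33. The FGFR1 locus holds LETM2 on the opposite strand, at 3.07 FPKM in Ku and 5.32 in Cov DMSO libraries.

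IGF1R and INSR bind insulin-like growth factors and insulin and are close relatives that can pair in one receptor. IGF1R (chromosome 15, 99191768 to 99507759, plus strand) measured 9.04 and 7.09 FPKM with DMSO in Ku, 8.72 and 7.69 with 50 nM, and 2.82 and 3.46 with 250 nM. Cov cells had 9.53 and 10.3 FPKM in DMSO, 4.82 and 5.27 at 50 nM, and 3.32 and 3.63 at 250 nM. In Ku the 50 nM libraries lay within the range of the DMSO libraries and both 250 nM libraries lay below them, while in Cov every step was apart. The log2 change at 50 nM was 0.03 ± 0.16 (SE) in Ku, with a 95% interval of -0.37 to 0.43, and -0.86 ± 0.10 in Cov. At 250 nM it was -1.13 ± 0.16 in Ku and -1.29 ± 0.10 in Cov, with limma adjusted p of 0.000763 and 1.22e-05, within 0.02 of the median of all genes in both; it turned to 0.54 and 0.49 under equal medians and to 0.08 and 0.09 under median-of-ratios.

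INSR (chromosome 19, 7112266 to 7294425, minus strand) was the least abundant receptor in each group of libraries by its mean. In Ku it measured 0.315 and 0.278 FPKM in DMSO, 0.217 and 0.218 at 50 nM, and 0.106 and 0.122 at 250 nM, where the floor of the same 250 nM libraries was 0.0783 and 0.0822. In Cov it measured 1.52 and 1.77 FPKM in DMSO, 0.579 and 0.7003 at 50 nM, and 0.436 and 0.516 at 250 nM. Groups were apart in both lines. The log2 change at 250 nM was -0.22 ± 0.04 (SE) in Ku, under the threshold of 0.5, and -0.84 ± 0.08 in Cov, called at a limma adjusted p of 4.21e-05, above the median of all genes by 0.89 and 0.47. In mean FPKM 38.5% of DMSO was left in Ku and 29.0% in Cov, falls that the pseudocount of 1 shrinks on the log scale. With a pseudocount of 0.1 INSR was called lower in Ku at -0.89 (limma adjusted p 0.000626). The median of all genes there was then -1.39, and 10205 of 14251 were called lower. Under equal medians INSR was above DMSO in both lines, at 0.11 and 0.15, but below the median of all genes at 0.30 and 0.33.

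Between 50 and 250 nM fewer receptors passed than between DMSO and 250 nM. In Ku, 5 of 10 were called lower at 250 than at 50 nM, ERBB2, MET, FGFR1, FGFR2 and EPHA2, against 36% of all genes. In Cov, 2 of 10 were called lower, MET and EPHA2, against 24.4% of all genes. No receptor was called higher, against 0.0421% of genes in Ku and 0.0842% in Cov, and none had a rise with an unadjusted p under 0.05. The log2 change of this step was -1.35 for EPHA2 and -1.499 for ERBB2 in Ku, with limma adjusted p of 4.50e-05 and 5.14e-05, and -1.01 for MET and -0.94 for EPHA2 in Cov, with 0.000282 and 0.00035. Without any 1 of the 4 treated Ku libraries, which leaves 1 in that group, ERBB2 and EPHA2 stayed called. MET, FGFR1 and FGFR2 did not, with log2 changes of -1.14 to -1.02, -0.85 to -0.80 and -1.36 to -1.22. Without either DMSO library EGFR was called too. In Cov, MET was not called without either 250 nM library, nor EPHA2 without the first one, with log2 changes of -1.11 to -0.92 and -1.07 to -0.80. Where receptors lost their call, fewer of all genes were called lower as well. Libraries of all 3 groups were in dose order, each DMSO library above each 50 nM library and these above each 250 nM library, for 8 receptors in Ku and 9 in Cov, beside 66.7% and 73.8% of all active genes. The exceptions were ERBB3 and IGF1R in Ku and ERBB3 in Cov. Each DMSO library exceeded each 250 nM library for 9 receptors in Ku and 10 in Cov, beside 95.9% and 95.6% of all active genes, and each 50 nM library for 8 and 10, beside 75.8% and 95.7%.

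The make-up of the receptor transcripts differed between treated and untreated cells. The FPKM of the 10 receptors added up to 334 ± 22.8 (SD, n = 2) in DMSO-treated Ku cells, and to 261 ± 0.171 and 109 ± 0.435 with 50 and 250 nM THZ1. In Cov the sums were 568 ± 46.1, 233 ± 7.39 and 139.6 ± 8.24. A share of this sum, like a ratio of receptors, is taken within a library and does not depend on any single scale factor for that library. In Cov the share of AXL was 14.3% and 14.4% in the DMSO libraries, 17.9% in both 50 nM libraries, and 23.9% and 24.6% at 250 nM. In Ku it was 8.26% and 7.64% in DMSO, lower at 50 nM with 6.58% and 6.33%, and higher at 250 nM with 10.5% and 10.2%. The share of MET in Cov was 29.7% and 30.8% in DMSO, 27.6% and 30.1% at 50 nM, which overlapped DMSO, and 25.1% and 21.9% at 250 nM. EPHA2 in Cov held 34.6% and 33.1% in DMSO, 33.3% and 30.8% at 50 nM, again with overlap, and 26.2% and 29.1% at 250 nM. In Ku the share of FGFR1 was 8.20% and 8.27% in DMSO, 10.02% and 9.77% at 50 nM, and 12.8% and 13.2% at 250 nM. The share of EGFR there was 4.94% and 3.96%, then 2.98% and 2.82%, and 2.57% and 2.61%. EPHA2 in Ku held 48.7% and 51.1% in DMSO, 51.3% and 53.5% at 50 nM, and 48.8% and 48.9% at 250 nM.

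**Figure D3:**
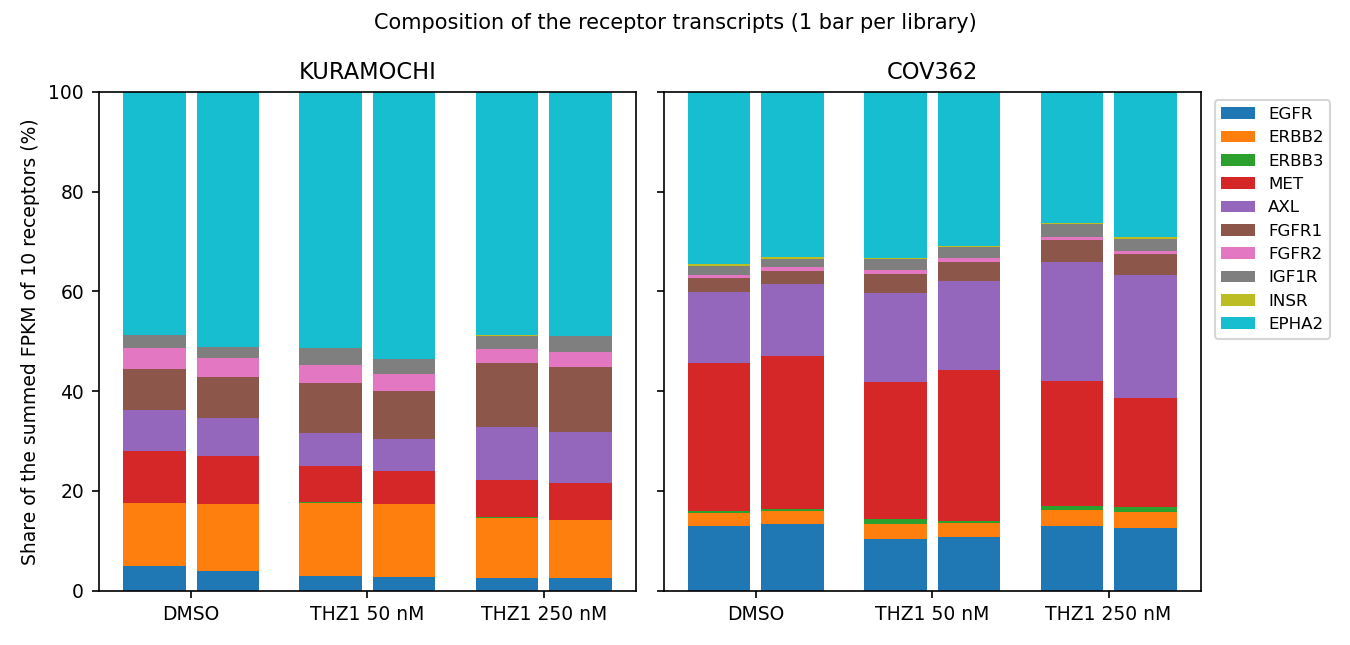
Share of each receptor in the summed FPKM of the 10 receptors (%), with 1 stacked bar per library in Ku (left) and Cov (right), ordered by dose. In Cov the AXL band widens from 14.3% and 14.4% in DMSO to 23.9% and 24.6% at 250 nM, where the MET band is narrower than in DMSO, and in Ku the FGFR1 band widens.

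Ratios of paired receptors were also taken library by library. The MET to AXL ratio in Ku was 1.25 and 1.24 in DMSO, 1.10 and 1.05 at 50 nM, and 0.710 and 0.720 at 250 nM. In Cov it was 2.08 and 2.13, 1.54 and 1.68, and 1.05 and 0.891. MET transcripts thus exceeded those of AXL in every DMSO library and lay below them in 3 of 4 libraries at 250 nM. The FGFR1 to FGFR2 ratio in Ku was 1.91 and 2.18 in DMSO, 2.71 and 2.93 at 50 nM, and 4.33 and 4.62 at 250 nM. EGFR to ERBB2 was lower with THZ1 in both lines, at 0.393 and 0.296 in DMSO and 0.214 and 0.227 at 250 nM in Ku, and 5.19 and 5.35 against 4.02 and 3.83 in Cov, with its lowest values at 50 nM. MET to EGFR moved in opposite directions at 250 nM, from 2.09 and 2.402 to 2.90 and 2.82 in Ku and from 2.27 and 2.30 to 1.93 and 1.74 in Cov. In 13 of the 14 comparisons of a dose with DMSO the groups did not overlap, and the exact two-sided permutation p was 0.333, the smallest that 2 against 2 libraries can give, or 0.359 adjusted over the 14. The exception was MET to EGFR at 50 nM in Ku, with an exact permutation p of 0.667. The 14 comparisons share genes and DMSO libraries. How often ratios of other gene pairs do not overlap was not tested, so the 13 are not a result about these receptors. ERBB3 to ERBB2 and IGF1R to INSR were not formed because a partner was below 1 FPKM in some libraries of each line, nor was FGFR1 to FGFR2 in Cov.

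Promoter sequences were taken from RefSeq (GRCh38.p14) for the 8 of 10 receptors matched there, as the 250 bases before the annotated start. The sequences of EGFR, MET and EPHA2, the receptors below the median of all genes at 250 nM in both lines with their whole interval, are shown beside that of AXL, which lay on it. Bases are written 5′ to 3′ on the strand of the gene, with the GC box GGGCGG, or CCGCCC on the other strand, in capitals.
EGFR, chr7:55018767-55019016, plus strand: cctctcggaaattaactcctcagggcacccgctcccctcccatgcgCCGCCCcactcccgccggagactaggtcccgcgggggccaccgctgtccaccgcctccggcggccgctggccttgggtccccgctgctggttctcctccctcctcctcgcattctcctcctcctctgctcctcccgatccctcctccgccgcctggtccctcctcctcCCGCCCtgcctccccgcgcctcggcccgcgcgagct
MET, chr7:116671946-116672195, plus strand: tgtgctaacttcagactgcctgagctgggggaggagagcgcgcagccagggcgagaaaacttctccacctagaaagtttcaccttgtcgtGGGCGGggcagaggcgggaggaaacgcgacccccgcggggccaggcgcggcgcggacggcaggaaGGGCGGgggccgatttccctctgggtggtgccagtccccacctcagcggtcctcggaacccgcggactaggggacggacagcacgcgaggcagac
EPHA2, chr1:16156070-16156319, minus strand: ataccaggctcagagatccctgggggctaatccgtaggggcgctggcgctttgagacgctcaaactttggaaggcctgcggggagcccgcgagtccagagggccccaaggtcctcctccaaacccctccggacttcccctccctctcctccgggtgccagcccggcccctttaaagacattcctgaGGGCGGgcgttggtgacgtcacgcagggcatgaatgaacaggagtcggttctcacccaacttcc
AXL, chr19:41218973-41219222, plus strand: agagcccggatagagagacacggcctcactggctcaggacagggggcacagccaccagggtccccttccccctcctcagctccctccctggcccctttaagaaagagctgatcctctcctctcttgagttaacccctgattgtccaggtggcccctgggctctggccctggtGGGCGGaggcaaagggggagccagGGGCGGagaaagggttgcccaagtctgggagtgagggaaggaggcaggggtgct
EGFR, MET and AXL hold 2 GC boxes each and EPHA2 holds 1. Of the 8 matched receptors 7 hold at least 1, all but ERBB2, and none holds TATAAA on either strand. Over 27305 promoters of this length 42.2% hold GGGCGG and 11.2% hold TATAAA. The GC content was 73.6% for EGFR, 68.4% for MET, 63.2% for EPHA2 and 64.4% for AXL, and the median of all promoters was 57.6%. Gene span went from 26.7 kb for ERBB3 to 316 kb for IGF1R. Over the 10 receptors, which share the same libraries, its Spearman correlation with the log2 change at 250 nM was -0.28 in Ku and -0.16 in Cov, and over the 12757 active genes with a span it was 0.02 and -0.09.

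Outside the 10 receptors, 48 other receptor tyrosine kinases were listed. Of these, 31 were active, and 18 were called lower in Ku and 20 in Cov at 250 nM, with a median log2 change of -0.76 and -0.80. Both counts are smaller shares of the list than the 68.6% and 84% of all active genes called lower, and the medians of all genes were -1.11 and -1.31. A gene was active if it passed 1 FPKM in either line, and 13 of the 31 averaged under 1 FPKM over the 6 libraries of Ku and 14 over those of Cov, against 15.6% and 12.2% of all active genes; on the log2(FPKM + 1) scale such genes can change little. At 250 nM none was called higher or had a rise with an unadjusted p under 0.05 in limma. EPHB4, an ephrin-B receptor, went from 28.0 and 26.2 FPKM to 2.10 and 2.34 in Ku (log2 change -3.13 ± 0.11 SE) and from 23.0 and 24.1 to 5.56 and 6.06 in Cov (-1.85 ± 0.09). EPHB3 followed in Ku at -1.85, and LMTK2 led in Cov at -2.54, from 11.1 and 11.9 FPKM to 1.13 and 1.16. The highest values belonged to kinases near the floor, STYK1 and MST1R in Ku at -0.05 and -0.04 and TEK and TIE1 in Cov at -0.06 and -0.01. With libraries scaled to equal medians, 23 of the 31 in Ku and 25 in Cov lay above DMSO, and EPHB4 was -1.47 in Ku and 0.05 in Cov. Under that scaling the list median was 0.21 in Ku and 0.23 in Cov, beside 0.30 and 0.33 for all active genes. Most of all active genes thus lay above DMSO too. At 50 nM 3 of the 31 were called lower in Ku and 19 in Cov, against 11.3% and 70.5% of all genes. In Ku 14 had a fall and 2 a rise with an unadjusted p under 0.05 in limma at that dose. EPHB3 rose there from 4.94 and 4.73 FPKM to 7.69 and 6.89, a log2 change of 0.51, not called.

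Among ligands, 18 of 27 listed were active, and 11 were called lower in Ku and 14 in Cov at 250 nM, against 68.6% and 84% of all genes, with median log2 changes of -0.87 and -1.17 beside -1.11 and -1.31. In Ku 5 and in Cov 4 of the 18 averaged under 1 FPKM. None had a rise at 250 nM with an unadjusted p under 0.05. FGF18, a fibroblast growth factor, went from 75.2 and 74.1 FPKM in DMSO to 4.21 and 3.63 in Ku and from 132 and 139 to 8.64 and 9.07 in Cov, log2 changes of -3.95 ± 0.09 (SE) and -3.79 ± 0.08. EFNA4, an ephrin-A ligand of EPHA receptors, went from 24.9 and 18.7 FPKM to 0.701 and 0.845 in Ku and from 16.4 and 20.0 to 0.555 and 0.496 in Cov, log2 changes of -3.67 and -3.65. Both were below DMSO under each scaling, at -2.16 or lower for FGF18 in Ku and -1.81 or lower in Cov. Both were called lower at 50 nM in Ku as well, the 2 ligands so called there against 11.3% of all genes, while 11 were called in Cov against 70.5%. HBEGF, an EGFR ligand named after its values were seen, lay above DMSO at 50 nM in Ku, with 49.2 and 44.8 FPKM against 29.5 and 28.2, a log2 change of 0.69 that was not called at a limma adjusted p of 0.00148. At 250 nM it was called lower there, with 17.5 and 15.9 FPKM. The ligands with the highest values were near the floor, TGFA and EFNA2 in Ku and FGF9 and IGF2 in Cov, with log2 changes between -0.12 and -0.04. As a list the ligands straddled DMSO under equal medians, with 8 of 18 below it in each line. Their median log2 change was then 0.12 in Ku and 0.07 in Cov, beside 0.30 and 0.33 for all active genes.

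Of the adaptors that carry the receptor signal 15 of 15 active genes were called lower at 250 nM in each line, where 68.6% of all genes in Ku and 84% in Cov were. Their median log2 changes were -1.38 in Ku and -1.88 in Cov, beside -1.11 and -1.31 for all genes, and 2 of the 15 in Ku and 1 in Cov averaged under 1 FPKM. NCK1, an SH2 and SH3 adaptor, went from 32.4 and 28.6 FPKM to 2.43 and 2.79 in Ku and from 25.5 and 29.6 to 1.94 and 1.98 in Cov, log2 changes of -3.13 ± 0.11 (SE) and -3.27 ± 0.13. CRK at -2.79 in Ku and CRKL at -3.14 in Cov came next. SHC1 was at 217 and 197 FPKM in DMSO and 111 and 126 at 250 nM in Ku, a log2 change of -0.80, and PTPN11, a tyrosine phosphatase, had -1.13 in Cov. GAB1 had -0.64 and -0.63, from under 1.06 FPKM. Under equal medians 9 of 15 lay below DMSO in each line, NCK1, CRK and CRKL among them, and SHC1 and PTPN11 lay above it in both. The list median was then -0.17 in Ku and -0.25 in Cov, beside 0.30 and 0.33 for all active genes. At 50 nM 0 of 15 were called lower in Ku, where 7 had a fall and 1 a rise with an unadjusted p under 0.05 in limma, and 11 of 15 in Cov, against 11.3% and 70.5% of all genes.

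Negative regulators of receptors were called lower at 250 nM for 9 of 10 active genes in Ku and 10 of 10 in Cov, against 68.6% and 84% of all genes. The median log2 changes were -1.92 and -1.85, beside -1.11 and -1.31 for all genes, and 0 of the 10 averaged under 1 FPKM in either line. LRIG3, a membrane protein of the LRIG family, went from 26.7 and 21.1 FPKM to 1.87 and 2.37 in Ku and from 32.1 and 36.9 to 2.07 and 2.09 in Cov, log2 changes of -2.99 ± 0.18 (SE) and -3.52 ± 0.13. ERRFI1, a feedback inhibitor of EGFR, had -2.59 in Ku, from 71.2 and 62.5 FPKM to 10.2 and 10.3, and the phosphatase PTPN1 had -2.51 in Cov. The highest values were those of SH3KBP1, an adaptor in receptor endocytosis, at -0.57 in Ku, not called, and -0.93 in Cov, and of PTPRJ at -1.26 in Ku and CBLB at -1.496 in Cov. Under equal medians LRIG3 was at -1.35 and -1.78, ERRFI1 at -0.70 in Ku and PTPN1 at -0.53 in Cov, whereas SH3KBP1 was above DMSO in both lines. At 50 nM 1 of 10 was called lower in Ku and 9 of 10 in Cov, against 11.3% and 70.5% of all genes.

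**Figure D4:**
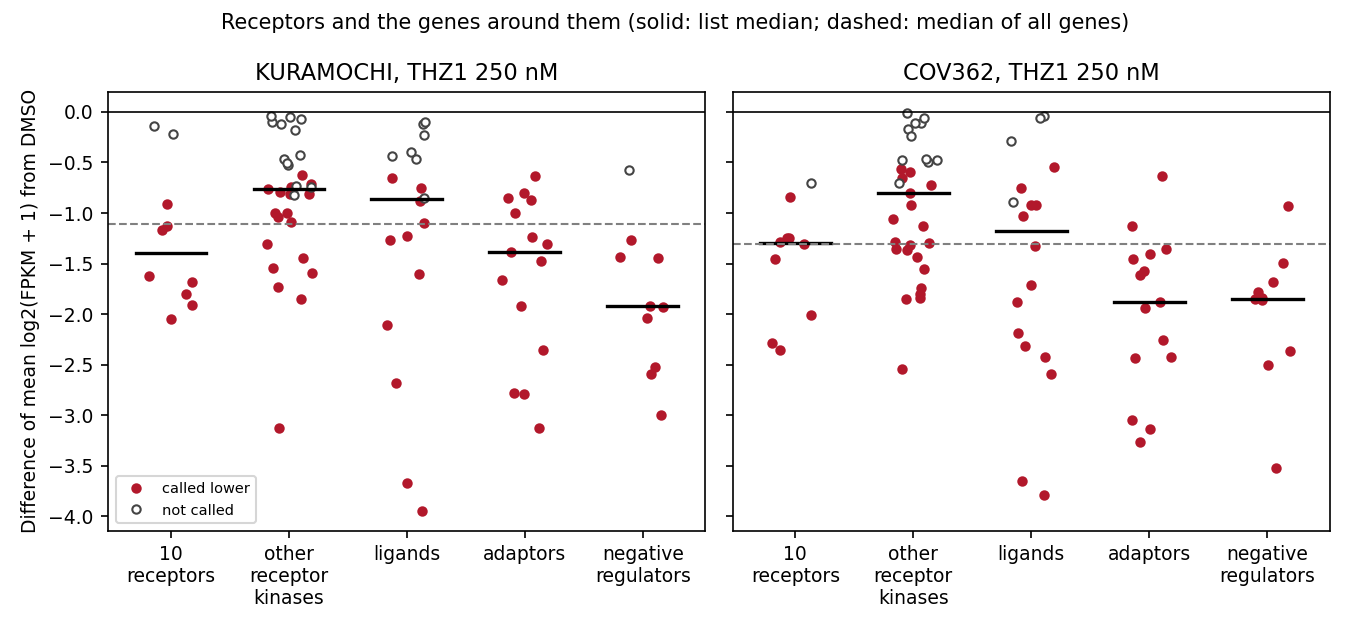
Difference of mean log2(FPKM + 1) between 250 nM THZ1 and DMSO on the spike-in scale for the 10 receptors and the 4 lists around them in Ku (left) and Cov (right); each point is 1 active gene, filled where called lower, solid lines are list medians and the dashed line is the median of all active genes. Many of the points close to 0 among the other receptor kinases are genes under 1 FPKM in that line, 13 of 31 in Ku and 14 in Cov by their mean, so list medians are not like for like. With libraries scaled to equal medians, 6 of 15 adaptors in each line and 5 of 10 negative regulators in Ku and 4 in Cov lie above DMSO. The medians of these lists are then -0.17 and -0.25, and -0.04 and -0.03, in Ku and Cov, beside 0.30 and 0.33 for all active genes.

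Each receptor was matched to the active gene with the most similar course over the 8 treated libraries, measured as the Euclidean distance of log2(FPKM + 1) from the mean of DMSO. The nearest genes were HIRA for EGFR at a distance of 0.20, SEC16A for MET at 0.18, ZNF710 for EPHA2 at 0.28, ASCC2 for AXL at 0.09, C19orf10 for FGFR1 at 0.09, BRI3 for FGFR2 at 0.22, IRF5 for IGF1R at 0.25, ZNF697 for ERBB2 at 0.26, KRT27 for ERBB3 at 0.23 and KIAA0226L for INSR at 0.09. Receptors were not nearest to one another. MET was the receptor closest to EGFR, at 0.63, with 227 other genes nearer, and the closest pair of receptors was FGFR1 and IGF1R at 0.42.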

How the data were processed

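The authors aligned single-end 75 bp reads of stranded mRNA libraries to hg19 with HiSat, quantified them with cuffquant and cuffnorm, and deposited FPKM values normalized to ERCC spike-ins, in 1 table per line. Whether 1 factor per library was used is not given in the sources used here. FPKM are not counts, so the count-based test of the study was not used, and depth is unknown. The 92 ERCC rows were left out. Active genes, above 1 FPKM in at least 1 of 12 libraries, were fitted as log2(FPKM + 1) with limma 3.58.1 in R 4.3.3 (eBayes with trend), lines separately, and p-values were adjusted by Benjamini-Hochberg over 14251 genes. Named genes were all receptors, the 2 largest falls and 2 highest values of each list at 250 nM, and the nearest gene. Receptors and lists were chosen with earlier results of these data known. On data simulated for Ku at 250 nM with 14251 genes, 6097 of 6874 genes lowered by 1.5 log2 units and 1 unchanged gene were called, and with 200 genes changed by 1 or 2 units, 0 or 96 were called. Gene positions come from GENCODE 44 lifted to GRCh37. Alternatives were another pseudocount, other filters, scalings and thresholds, a replicate block, no trend, and each library left out. No authors' comparison columns were present.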

Additional observations from a re-analysis of the deposited data

How the results depend on the processing

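Lower calls of the receptors were most affected by the scaling. Under equal medians the count was 0 in each of the 5 comparisons that had calls, and 2 were called higher at 250 nM in each line. Under median-of-ratios it was 1 at 250 nM against DMSO in each line and 0 elsewhere. Under equal medians the median log2 change of all genes was above 0 in each comparison, between 0.11 and 0.33. The log2 changes that turned sign under equal medians were these. In Ku 50 nM against DMSO, ERBB2 0.50, ERBB3 0.090, AXL 0.052, FGFR1 0.59, FGFR2 0.14, INSR 0.044 and EPHA2 0.42. In Ku 250 nM against DMSO, ERBB2 0.22, ERBB3 0.34, AXL 0.71, FGFR1 0.98, IGF1R 0.54, INSR 0.11 and EPHA2 0.34. In Ku 250 nM against 50 nM, ERBB3 0.25, MET 0.097, AXL 0.66, FGFR1 0.39 and INSR 0.069. In Cov 50 nM against DMSO, ERBB2 0.16, ERBB3 0.36, AXL 0.26, FGFR1 0.39, FGFR2 0.074 and IGF1R 0.21. In Cov 250 nM against DMSO, EGFR 0.0048, ERBB2 0.39, ERBB3 0.61, AXL 0.79, FGFR1 0.64, FGFR2 0.073, IGF1R 0.49 and INSR 0.15. In Cov 250 nM against 50 nM, EGFR 0.38, ERBB2 0.23, ERBB3 0.24, AXL 0.54, FGFR1 0.25, IGF1R 0.28 and INSR 0.21. The log2 changes that turned sign under median-of-ratios were these. In Ku 50 nM against DMSO, ERBB2 0.36, ERBB3 0.058, FGFR1 0.45, FGFR2 0.0072, INSR 0.019 and EPHA2 0.28. In Ku 250 nM against DMSO, ERBB3 0.18, AXL 0.21, FGFR1 0.48, IGF1R 0.084 and INSR 0.013. In Ku 250 nM against 50 nM, ERBB3 0.12, AXL 0.30 and FGFR1 0.027. In Cov 50 nM against DMSO, ERBB3 0.23, AXL 0.066, FGFR1 0.21 and IGF1R 0.043. In Cov 250 nM against DMSO, ERBB3 0.29, AXL 0.34, FGFR1 0.21 and IGF1R 0.085. In Cov 250 nM against 50 nM, EGFR 0.12, ERBB3 0.056, AXL 0.28, FGFR1 0.0044, IGF1R 0.042 and INSR 0.069. The cause was not tested.

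With an adjusted p under 0.05 the counts were 4 in Ku at 50 nM, 8 in Ku for 250 against 50 nM and 4 in Cov for 250 against 50 nM. Of 14251 active genes 5734, 8295 and 5909 were then called lower. With a log2 change beyond 1 the receptor counts were 3 in Cov at 50 nM and 1 in Cov for 250 against 50 nM. Beside them stood 5054 and 2035 of all active genes. With no minimum FPKM the receptor count was 3 in Ku for 250 against 50 nM, beside 1901 of the 23621 genes tested. Leaving out 1 library at a time gave 0 to 0 in Ku at 50 nM, 5 to 7 in Ku at 250 nM, 2 to 6 in Ku for 250 against 50 nM, 3 to 9 in Cov at 50 nM, 9 to 10 in Cov at 250 nM and 0 to 2 in Cov for 250 against 50 nM. In Ku at 50 nM the sign of ERBB3 turned to 0.039 without DMSO replicate 1 (range -0.16 to 0.039), that of IGF1R to -0.13 without DMSO replicate 2 and -0.052 without 50 nM replicate 1 (range -0.13 to 0.18), and that of the log2 MET to EGFR ratio to -0.0034 without DMSO replicate 1 (range -0.0034 to 0.20). A pseudocount of 0.1, a minimum on condition means and eBayes without the trend left each count within 1.5 times its value.

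Replicate numbers did not pair the libraries, with correlations of deviations of the same number between -0.070 and 0.028. With the replicate number as a block the counts were 0, 7 and 5 in Ku and 8, 9 and 0 in Cov, in the order of 50 nM, 250 nM and 250 against 50 nM. MET and EPHA2 were the calls lost for 250 against 50 nM in Cov. Over all genes the block moved the genes called lower from 1607 to 989 in Ku at 50 nM and from 3474 to 1130 in Cov for 250 against 50 nM, and elsewhere by less than 1.5 times. Genes near or below 1 FPKM, ERBB3 and INSR in Ku above all, are limited by the floor and by the pseudocount, and 2 libraries per group limit every error given.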
